A study of Mus musculus with 24 samples.

Results

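Livers of Ercc1 d/- mice kept on 30% dietary restriction until 16 weeks of age were set against livers of freely fed Ercc1 d/- mice of the same age. The comparison rests on 8 libraries of the 24 in the series, 4 restricted and 4 freely fed, chosen by the genotype, diet and age given in their labels. All animals were male F1 hybrids of C57BL6J and FVBN, lived in single cages and ate AIN93G pellets. Restricted Ercc1 d/- mice received 1.6 g of food per day and freely fed ones ate 2.3 g. The food of restricted mice was cut by 10% at 7 weeks of age and by a further 10% each week, so that full restriction held from 9 weeks. Food was offered at Zeitgeber hour 12, just before the dark phase, and none was given on the day of collection before the liver was taken. Also used, with 4 libraries each, were Ercc1 d/- mice fed freely to 7 weeks, restricted Ercc1 +/+ mice of 16 weeks on 2.1 g per day and freely fed Ercc1 +/+ mice of 16 weeks on 3.0 g per day; freely fed Ercc1 +/+ mice of 104 weeks entered only the shared fit. The clock time of collection and the hours since the last meal are not given, so the diet and the feeding state at collection cannot be told apart. Polyadenylated RNA was sequenced. No label says that the numbered libraries of a group come from different animals, and every p-value below rests on the spread among these libraries alone. In bulk liver fewer cells of a type and less RNA per cell cannot be told apart.

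ERCC1 forms a nuclease with XPF that cuts the damaged strand in nucleotide excision repair and also acts in the repair of crosslinks between strands. The d/- genotype joins a shortened allele to a null one in every tissue, and such mice age early, with liver among the organs affected. Male mouse liver owes many of its typical transcripts to the pulsed release of growth hormone, which acts through the growth hormone receptor and STAT5B. Females release the hormone more evenly and express a different set of cytochrome P450, sulfotransferase and secreted protein genes. Liver also adapts its amino acid, lipid and secretory functions to the supply of food.

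Counts assigned to genes ran from 13.3 to 17.0 M (mega) in the 8 libraries. The 22 hepatocyte markers summed to between 137200 and 174900 CPM (counts scaled to library size) in restricted and to between 137800 and 172700 CPM in freely fed Ercc1 d/- livers, and none of the 22 was at 0. Single markers did change: by the test described below, 2 were higher and 5 were lower in restricted livers. That is 31.8% called, against 11.2% of all genes tested. With libraries scaled by total counts alone, 5 were higher and 3 were lower. Ercc1 itself averaged 1.55 ± 0.33 CPM in restricted and 1.51 ± 0.41 CPM in freely fed Ercc1 d/- livers, against 3.52 ± 0.98 CPM in restricted and 2.59 ± 0.41 CPM in freely fed Ercc1 +/+ livers (SD, n = 4 each). Transcripts of mitochondrial DNA took 13.6% to 15.01% of counts in restricted and 9.37% to 10.9% in freely fed Ercc1 d/- livers, and albumin took 8.14% to 9.98% in restricted and 5.36% to 6.65% in freely fed ones.

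A principal component analysis of the 500 most variable genes put diet on the first component, with 71.1% of the variance. The second component, with 13.4%, separated the restricted libraries from each other: replicates 1 and 2 lay at -15.9 and -15.4, and replicates 3 and 4 at 16.7 and 14.1. The metallothionein Mt2, which binds zinc and copper, stood at 712.5, 1049, 25.8 and 56.3 CPM in restricted replicates 1 to 4. Freely fed replicates 1 to 4 had 432.6, 6.44, 12.8 and 71.7 CPM. Restricted replicates 1 and 2 and freely fed replicate 1 were thus the high ones. Lpin1, a phosphatidate phosphatase of lipid synthesis, had 245.2, 494.4, 19.7 and 33.6 CPM in the restricted livers, with replicates 3 and 4 below every freely fed liver. The fatty acid synthase gene Fasn went the other way, at 306.7, 268.0, 1025 and 1450 CPM in the restricted livers against 256.8, 494.4, 512.1 and 331.5 CPM in the freely fed ones. No label tells these pairs of restricted mice apart, and each main count below was therefore also taken without either pair.

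**Figure D1:**
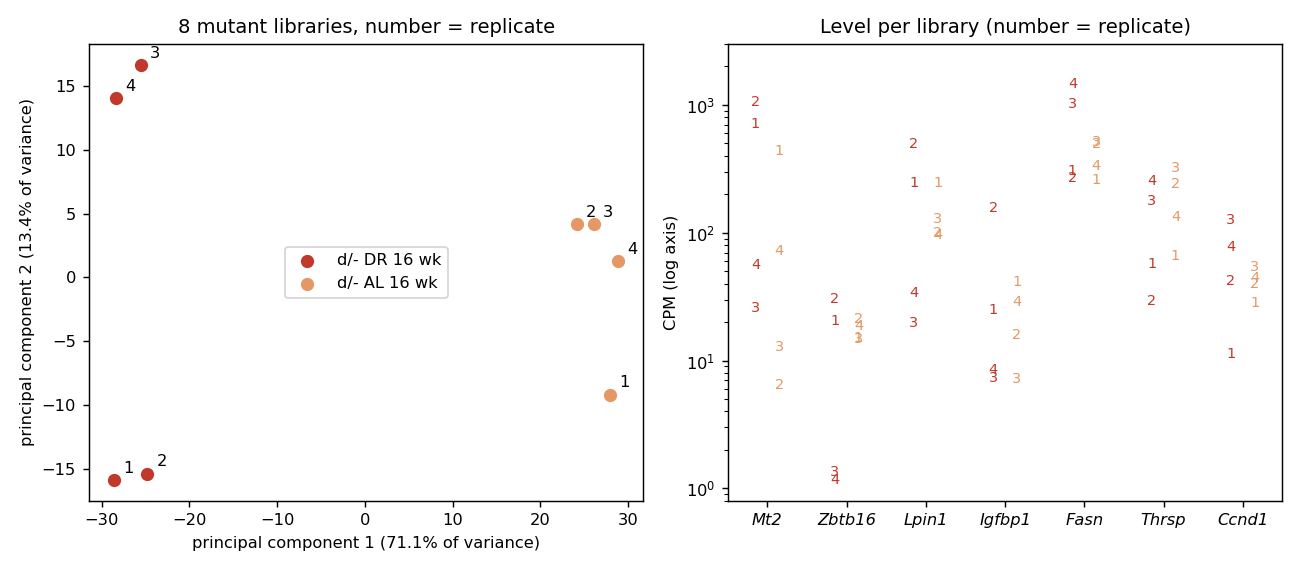
Left, the 8 Ercc1 d/- libraries on principal components 1 and 2 of the 500 most variable genes, with the replicate number beside each point. Right, the level of 7 genes in CPM on a log axis, each number marking the library of that replicate. Restricted replicates 1 and 2 (second component -15.9 and -15.4) lie apart from restricted replicates 3 and 4 (16.7 and 14.1), for example in Mt2 and Zbtb16.

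Restriction changed 1426 of the 12690 genes tested in Ercc1 d/- liver (edgeR's quasi-likelihood test, Benjamini-Hochberg adjusted p under 0.05), or 11.2% of them. Of these, 623 were higher (4.91% of genes tested) and 803 were lower (6.33%) in restricted livers. A change past 1 log2 unit was seen in 334 higher and 313 lower genes. The median log2 fold change over all genes was 0.003. With library sizes scaled by total counts alone this median was 0.118, and the split turned to 1005 higher and 496 lower genes, so 67.0% of called genes were higher in place of 43.7%. Small shifts of whole gene groups therefore depend on the scaling, and the counts of the groups that turn on it are given with both. Without restricted replicates 1 and 2 the count was 913, and without restricted replicates 3 and 4 it was 1673.

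Genes that male and female mice express at different levels in liver were among the largest changes. All 28 tested members of a list of male-biased genes were lower in restricted Ercc1 d/- livers, with a median log2 fold change of -2.81. Of 34 female-biased genes, 24 were higher and 3 were lower, with a median of 2.21, and 30 of the 34 had values that did not overlap between the diets, where 17.3% of all genes tested did not. Leaving out restricted replicates 1 and 2 left 25 male-biased genes lower and 24 female-biased genes higher, and leaving out replicates 3 and 4 left 27 and 22.

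Fmo6, a gene of the flavin monooxygenase family, stood at 71.7, 51.0, 61.2 and 45.7 CPM in restricted Ercc1 d/- livers. Freely fed Ercc1 d/- livers had 0.19, 0.11, 0.71 and 0.32 CPM. The groups were far from overlapping, with means of 57.4 ± 11.5 CPM in restricted and 0.33 ± 0.27 CPM in freely fed livers (SD, n = 4 each). Its fitted log2 fold change was 7.46 ± 0.41 (SE, edgeR adjusted p = 1.2e-10), or 8.08 without freely fed replicate 3.

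Among sulfotransferases of the Sult2a group, which conjugate steroids and bile acids, and of the Sult3a group, genes moved in both directions. Of 10 such genes, in a list drawn up after values had been seen, 8 were higher and 2 were lower, but their summed level was lower, at 124.6 to 200.9 CPM in restricted against 332.9 to 462.8 CPM in freely fed Ercc1 d/- livers. Sult2a8 was most of that sum in freely fed livers, at 355.4, 387.0, 441.7 and 319.1 CPM. In restricted livers Sult2a8 stood at 140.6, 124.9, 60.5 and 38.2 CPM (log2 fold change -2.04 ± 0.41). In restricted replicates 3 and 4 it was not most of the sum. Of the genes that rose, Sult2a6 had the highest freely fed mean, at 6.17 ± 2.06 CPM in restricted and 0.55 ± 0.51 CPM in freely fed livers. Sult3a2 had 8.87, 7.29, 0.70 and 1.94 CPM in restricted livers and no count in any freely fed Ercc1 d/- liver. The restricted mean of 4.70 CPM was 24.1-fold higher than a floor of 3 counts in each freely fed library (0.195 CPM). Restricted replicate 3 was nearest to that floor. Restricted replicates 1 and 2 were above replicates 3 and 4. Sult3a1 averaged 13.1 ± 10.3 CPM in restricted and 0.03 ± 0.04 CPM in freely fed livers (log2 fold change 8.38 ± 1.09, or 6.88 without restricted replicates 1 and 2). Sult2a2 and Sult2a4 had fitted changes of 7.63 ± 0.80 and 7.55 ± 0.81, which were 8.61 and 9.90 without freely fed replicate 3. Sult2a2 shares 62.1% and Sult2a4 25.5% of its 50-base stretches with other genes, so their separate values are uncertain. Sult2a7 also fell, at 2.69, 2.68, 1.63 and 0.58 CPM in restricted livers against 19.6, 14.7, 18.4 and 13.2 CPM in freely fed Ercc1 d/- livers.

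The female-biased genes that fell were Cyp2c69, Cyp2c40 and Slc22a27. Cyp2c69 had 237.8, 278.0, 223.1 and 173.7 CPM in restricted against 578.8, 464.6, 558.2 and 481.1 CPM in freely fed Ercc1 d/- livers, with no overlap (log2 fold change -1.19 ± 0.17). It shares 54.3% of its 50-base stretches with 4 other genes.

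**Figure D2:**
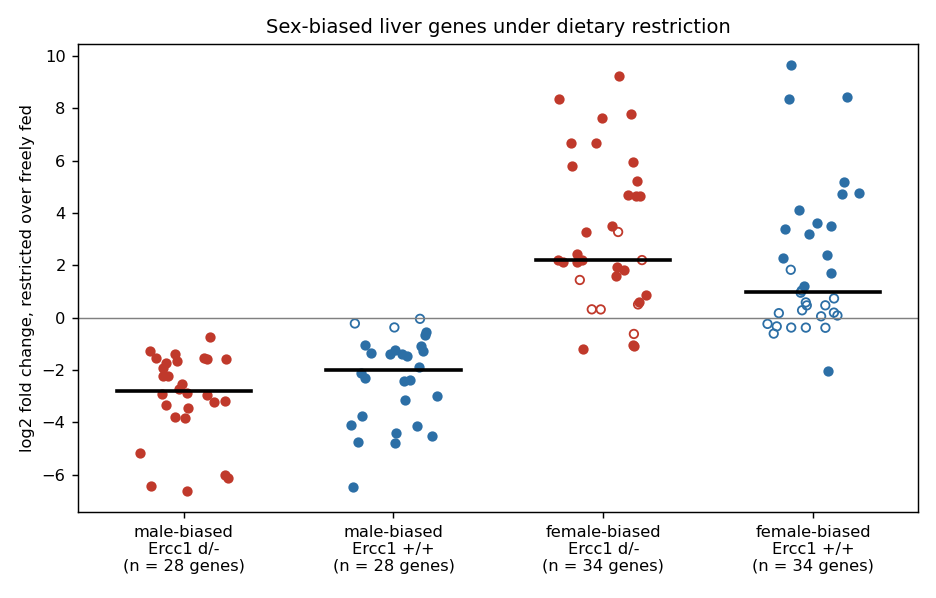
Log2 fold change of restricted over freely fed livers for each tested gene of the male-biased list (28 genes) and the female-biased list (34 genes), in Ercc1 d/- and Ercc1 +/+ livers. Filled points passed the test (edgeR adjusted p under 0.05), open points did not, and the bar is the median of the list, at -2.81 and -2.01 for the male-biased and at 2.21 and 0.99 for the female-biased genes.

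The major urinary proteins, carriers of scent molecules made in male liver, were lower. Mup20, or darcin, at chr4:62050234-62054158 (GRCm38), stood at 304.6, 685.7, 771.2 and 580.7 CPM in restricted livers and at 9093, 7036, 7383 and 9732 CPM in freely fed Ercc1 d/- livers. Every restricted liver was below every freely fed one, and the log2 fold change was -3.83 ± 0.42. All 22 Mup genes tested were lower, and together they summed to between 1441 and 3025 CPM in restricted and between 31590 and 47120 CPM in freely fed livers. The largest fitted falls were those of Mup13 (-7.36 ± 0.82), Mup8, Mup1, Mup12 and Mup15, but 61.6% to 100% of the 50-base stretches of these 5 genes recur in other genes, so the sum is the firmer value. With DESeq2 in place of edgeR, 17 of the 22 were called lower. DESeq2 returned no adjusted p for Mup1, Mup12 and Mup15, though it fitted log2 fold changes of -6.43, -6.42 and -6.39. This list of Mup genes was drawn up after values had been seen.

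Elovl3, an elongase of very long fatty acids, had 1.23, 0, 2.04 and 0.78 CPM in restricted livers. Freely fed Ercc1 d/- livers had 78.2, 140.7, 70.6 and 105.7 CPM. This gene was close to absent in all 4 restricted livers (log2 fold change -6.61 ± 0.76, or -7.23 without restricted replicate 3). Cyp4a12a, which hydroxylates arachidonic acid, averaged 12.8 ± 3.7 CPM in restricted and 178.7 ± 24.4 CPM in freely fed livers (-3.81 ± 0.23), with 48.9% of its 50-base stretches shared with Cyp4a12b. Hsd3b5, a steroid dehydrogenase, fell by 5.17 ± 0.48 log2 units, and Cyp7b1, an oxysterol hydroxylase of bile acid and steroid metabolism, fell by 3.21 ± 0.37.

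Of 20 genes of the growth hormone and IGF1 axis, 4 were higher and 4 were lower, with a median of -0.04. Without restricted replicates 1 and 2 the count higher was 2, and under total-count scaling the count lower was 2. The receptor gene Ghr had 119.2, 96.9, 111.6 and 97.7 CPM in restricted livers against 248.5, 271.9, 265.9 and 273.3 CPM in freely fed Ercc1 d/- livers. The groups were tight and did not overlap, and the log2 fold change was -1.32 ± 0.17 (edgeR adjusted p = 5.2e-06). Bcl6, a repressor that keeps female-biased genes low in male liver, stood at 6.83, 6.11, 7.76 and 9.53 CPM in restricted livers against 28.6, 9.35, 39.1 and 36.4 CPM in freely fed ones. Restricted replicate 4 lay just above freely fed replicate 2, and the change was -1.91 ± 0.39. Igfals, which encodes the acid-labile carrier of IGF1 in blood, changed by -0.73 ± 0.18. Igf1 itself averaged 187.6 ± 41.8 CPM in restricted and 221.9 ± 28.9 CPM in freely fed livers and did not pass the test (-0.24 ± 0.14, edgeR adjusted p = 0.31). Without restricted replicates 1 and 2, however, Igf1 was called lower (-0.536, edgeR adjusted p = 0.0358).

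Cux2, a repressor found in female liver, stood at 76.8, 29.5, 18.6 and 24.6 CPM in restricted livers and at 0.44, 0.40, 0.21 and 1.33 CPM in freely fed Ercc1 d/- livers (log2 fold change 5.94 ± 0.83). Its change was 5.32 without restricted replicate 1 and 6.68 without freely fed replicate 4. The leptin receptor gene Lepr had 415.8, 260.7, 86.0 and 136.5 CPM in restricted against 5.54, 3.13, 4.13 and 3.37 CPM in freely fed livers. The lowest restricted liver was thus far above the highest freely fed one (5.80 ± 0.50, or 4.78 without restricted replicates 1 and 2). Igfbp2, a binding protein of IGF1, also rose (0.88 ± 0.28), while Igfbp1, a binding protein that insulin lowers, had 24.9, 156.8, 7.30 and 8.42 CPM in restricted and 41.0, 15.8, 7.195 and 28.7 CPM in freely fed livers and did not pass (1.09 ± 1.47, edgeR adjusted p = 0.70).

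**Figure D3:**
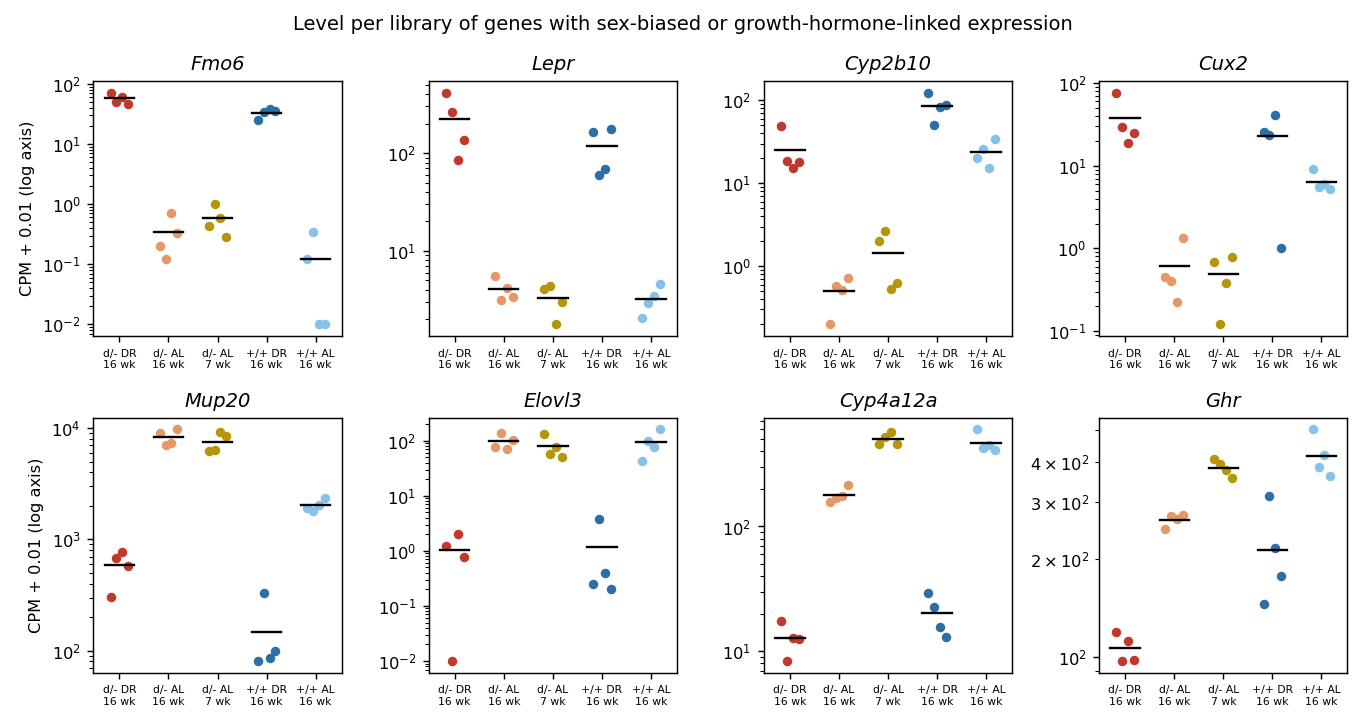
Level of 8 genes in each library, in CPM plus 0.01 on a log axis, with the group mean as a bar. In restricted Ercc1 d/- livers Fmo6, Lepr, Cyp2b10 and Cux2 lie above and Mup20, Elovl3, Cyp4a12a and Ghr below all freely fed Ercc1 d/- livers, for example Fmo6 at 45.7 CPM or more against 0.71 CPM or less.

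Enzymes of drug metabolism changed in both directions. Of 24 genes that the nuclear receptors CAR and PXR are known to control, 11 were higher and 3 were lower, with a median of 0.45. This was a called share of 58.3%, against 11.2% of all genes, and 7 were higher without restricted replicates 1 and 2. Cyp2b10, the classical target of CAR, had 48.9, 18.3, 15.2 and 17.8 CPM in restricted livers against 0.19, 0.57, 0.50 and 0.70 CPM in freely fed Ercc1 d/- livers. Restricted replicate 1 was well above the other three, and the log2 fold change was 5.65 ± 0.58, or 5.05 without restricted replicates 1 and 2. All 5 Cyp2b genes were higher, as were 5 of 9 Cyp3a genes. Cyp3a11, the main hepatic P450 of its subfamily and a PXR target, averaged 1947 ± 324 CPM in restricted and 545.9 ± 51.7 CPM in freely fed livers (1.83 ± 0.22). In the Cyp2c group 7 of 15 genes rose and 7 fell, from Cyp2c39 at 3.24 ± 0.22 to Cyp2c67 at -1.46. Of 8 Cyp2d genes 6 were lower and none was higher, with a median of -0.95, and they summed to between 3353 and 3725 CPM in restricted and between 5924 and 7002 CPM in freely fed Ercc1 d/- livers. These family lists were drawn up after values had been seen, and many of their members are near copies that may share reads.

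Most complement genes were lower. In a list of 26 complement genes drawn up after values had been seen, 20 were lower and none was higher, with a median of -1.0. The count lower was 19 under total-count scaling and 20 without either pair of restricted replicates. C6, a component of the membrane attack complex that male mice express more, had 36.7, 67.5, 74.0 and 53.5 CPM in restricted livers and 450.4, 385.4, 462.0 and 473.2 CPM in freely fed Ercc1 d/- livers. The groups were far apart (log2 fold change -2.93 ± 0.24). C9, of the same complex, averaged 224.7 ± 45.7 CPM in restricted and 1094 ± 223 CPM in freely fed livers, and C4b, of the classical pathway, averaged 656.6 ± 252 and 2116 ± 409 CPM in restricted and freely fed livers. Serpina1a, which encodes an antitrypsin, stood at 5304 ± 1684 CPM in restricted and 13530 ± 1819 CPM in freely fed livers (-1.35 ± 0.18), with 57.6% of its 50-base stretches shared with 5 other genes. Apoa1, the main protein of high-density lipoprotein, fell by 0.76 ± 0.19, while the albumin gene Alb did not pass (0.40 ± 0.17, edgeR adjusted p = 0.13).

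Of 30 acute phase genes, 5 were lower and 1 was higher, a called share of 20.0% against 11.2% of all genes. The serum amyloid gene Saa1 had 20.6, 31.8, 29.8 and 21.6 CPM in restricted livers against 1029, 71.9, 97.4 and 2109 CPM in freely fed Ercc1 d/- livers. Freely fed replicates 1 and 4 were more than the others by an order of magnitude, although all 4 freely fed livers were above all restricted ones. Saa4, which is expressed without inflammation, averaged 24.1 ± 9.0 CPM in restricted and 174.8 ± 49.8 CPM in freely fed livers (-2.86 ± 0.44). When single libraries were left out, the count of acute phase genes lower ran from 1 to 10.

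Of 23 genes of amino acid breakdown and the urea cycle, 11 were higher and 1 was lower, with a median log2 fold change of 0.50. The called share was 52.2%, against 11.2% of all genes. The count of higher genes was 16 under total-count scaling, 6 without restricted replicates 1 and 2, and 12 without replicates 3 and 4. Cps1, the entry enzyme of the urea cycle, had 7739, 6988, 7128 and 6620 CPM in restricted livers against 3127, 4792, 5288 and 4458 CPM in freely fed Ercc1 d/- livers, with no overlap (0.69 ± 0.14). Ass1, which joins citrulline to aspartate, averaged 5014 ± 811 CPM in restricted and 2393 ± 332 CPM in freely fed livers (1.07 ± 0.16), and Arg1, which releases urea, averaged 1992 ± 440 and 1146 ± 92 CPM in restricted and freely fed livers (0.80 ± 0.13). Otc, the mitochondrial step between Cps1 and Ass1, was the member that fell, at 197.3, 242.3, 270.8 and 239.8 CPM in restricted against 350.8, 382.7, 348.2 and 335.6 CPM in freely fed livers (-0.58 ± 0.12).

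Hal, which begins histidine breakdown, had 302.5, 223.7, 434.1 and 316.8 CPM in restricted livers and 82.4, 150.0, 123.7 and 133.5 CPM in freely fed Ercc1 d/- livers (log2 fold change 1.38 ± 0.18). Sds, which deaminates serine, rose by 1.66 ± 0.36. Of 17 genes of methionine and one-carbon metabolism, 5 were higher and none was lower (29.4% called, against 11.2% of all genes). They included Mat1a, which makes S-adenosylmethionine (1.03 ± 0.18), and Cth, which makes cysteine from cystathionine, at 605.0 ± 166 CPM in restricted and 189.2 ± 44.0 CPM in freely fed livers (1.68 ± 0.20).

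Several of these enzymes are typical of hepatocytes near the portal vein, and of 17 periportal markers 7 were higher and 2 were lower. Their median was 0.49, and 52.9% were called, against 11.2% of all genes. Etnppl, a phospholyase that breaks down phosphoethanolamine, had 647.9, 430.3, 362.9 and 242.8 CPM in restricted against 30.1, 99.3, 48.4 and 58.9 CPM in freely fed Ercc1 d/- livers (2.83 ± 0.34). Pck1, the key enzyme of glucose synthesis from oxaloacetate, was lower, at 505.1, 665.6, 273.9 and 288.9 CPM in restricted against 1650, 1168, 1062 and 2102 CPM in freely fed livers. Its groups did not overlap, but its change of -1.79 ± 0.54 lost the call without any 1 of restricted replicates 1, 3 and 4 or of freely fed replicates 1, 2 and 4 (edgeR adjusted p from 0.0501 to 0.1), and without either pair of restricted replicates. Cyp2f2 was the other periportal marker that fell (-1.0). Of 20 pericentral markers 2 were higher and 4 were lower (30.0% called, against 11.2% of all genes). Lhpp, a phosphatase, was at 51.3 ± 12.7 CPM in restricted and 19.7 ± 1.7 CPM in freely fed livers (1.38 ± 0.22). Rgn, a calcium-binding lactonase, was at 523.9 ± 57.4 and 1208 ± 55 CPM in restricted and freely fed livers (-1.21 ± 0.14).

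In lipid metabolism, 7 of 19 genes of lipid uptake and droplets were higher and 2 were lower, with a median of 0.56. This was a called share of 47.4%, against 11.2% of all genes. Pnpla2, the lipase that opens triglyceride breakdown, had 305.7, 204.6, 136.7 and 156.5 CPM in restricted livers and 70.1, 50.8, 46.6 and 49.96 CPM in freely fed Ercc1 d/- livers (log2 fold change 1.89 ± 0.27). Cd36, a fatty acid transporter, had 115.8, 89.9, 143.1 and 144.4 CPM in restricted against 41.0, 49.1, 43.1 and 53.8 CPM in freely fed livers. Its change of 1.40 ± 0.36 did not pass without restricted replicates 3 and 4 (1.14, edgeR adjusted p = 0.092). Fabp2, a fatty acid binding protein, fell by 0.81 ± 0.18, a call that ended without restricted replicates 1 and 2. Scd1, which desaturates fatty acids, stood at 616.3, 609.8, 609.0 and 1119 CPM in restricted against 205.3, 272.5, 114.4 and 316.7 CPM in freely fed livers (1.70 ± 0.40). Restricted replicate 4 was above the other three, and the groups did not overlap.

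Of 38 genes of fatty acid oxidation under PPARα, 7 were higher and 3 were lower, with a median of -0.02. This was a called share of 26.3%, against 11.2% of all genes. The count of higher genes was 11 under total-count scaling and 4 without restricted replicates 3 and 4. Cyp4a14, a fatty acid omega-hydroxylase and marker of PPARα activity, averaged 970.2 ± 248 CPM in restricted and 82.0 ± 21.9 CPM in freely fed Ercc1 d/- livers (3.56 ± 0.52), and Cyp4a10 averaged 1363 ± 364 and 362.5 ± 88.0 CPM in restricted and freely fed livers (1.91 ± 0.33). The liver fatty acid carrier Fabp1 went down (-1.66 ± 0.17). None of 26 cholesterol synthesis genes passed (median -0.32), although 8 of them were lower when restricted replicates 3 and 4 were left out. Fgf21, a hepatic hormone of nutrient stress, was near 1 CPM in both groups and did not pass (-0.44 ± 0.49).

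Chaperones and folding enzymes of the endoplasmic reticulum were lower. These genes form the output of the unfolded protein response, in which the sensors IRE1, PERK and ATF6 raise folding and degradation capacity. Of 24 such genes tested, 17 were lower and none was higher (70.8% called, against 11.2% of all genes). Their median was -1.0, against 0.003 over all genes. Hspa5, which encodes the chaperone BiP, had 414.5, 530.6, 982.8 and 661.0 CPM in restricted livers. Freely fed Ercc1 d/- livers had 1610, 872.6, 1591 and 1085 CPM. Restricted replicate 3 lay above freely fed replicate 2, and the log2 fold change was -0.99 ± 0.31 (edgeR adjusted p = 0.042). The call for Hspa5 was lost without any 1 of restricted replicates 1, 2 and 4 or of freely fed replicates 1, 3 and 4 (edgeR adjusted p from 0.055 to 0.13).

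Herpud1, which serves degradation of misfolded proteins, had 123.0, 149.3, 73.9 and 76.6 CPM in restricted against 463.6, 251.3, 272.1 and 287.7 CPM in freely fed Ercc1 d/- livers, with no overlap (-1.59 ± 0.31). Calr, a calcium-binding chaperone, averaged 322.6 ± 79.7 CPM in restricted and 651.1 ± 145 CPM in freely fed livers (-1.01 ± 0.22). The largest falls were those of Derl3 (-2.75 ± 0.81), Creld2 (-1.89 ± 0.52) and Sdf2l1 (-1.86 ± 0.53). Xbp1 and Atf6, transcription factors of the response, had changes of -0.27 ± 0.18 and -0.02 ± 0.18 and did not pass. The group's count depended on the libraries used: it was 13 under total-count scaling, ran from 10 to 19 when single libraries were left out, and was 1 without restricted replicates 1 and 2 against 19 without replicates 3 and 4. The list's median was -0.70 and -1.24 in these last fits.

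The element through which ATF6 and NF-Y act on such genes, the ER stress response element, is CCAAT and CCACG with 9 bases of any kind between them. It was searched on both strands of the RefSeq promoters (GRCm38.p6, 250 bases before to 50 after each gene's start), which were on hand for 20 of the 24 genes. The element was found in 9 of the 20, and in 20 of 9925 tested genes with a promoter (0.202%). Because the element is known from genes of this kind, its share in the list is not a result of these data. Motifs tied to other lists were also searched and are not reported here. Of the 9 genes with the ER stress response element 7 were lower in restricted livers, as were 7 of the 11 without it, with median log2 fold changes of -0.99 and -1.0. The 10 matches carry this count and are shown with the fixed blocks in capitals, each read 5′ to 3′ on the strand that carries it.
Hspa5: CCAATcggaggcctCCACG
Calr: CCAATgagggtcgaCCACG
Derl3: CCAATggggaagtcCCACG
Hsp90b1, distal: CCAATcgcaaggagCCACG
Hsp90b1, proximal: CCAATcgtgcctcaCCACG
Canx: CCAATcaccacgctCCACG
Pdia6: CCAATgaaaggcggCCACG
Dnajc3: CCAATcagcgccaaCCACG
Creld2: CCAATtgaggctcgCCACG
Syvn1: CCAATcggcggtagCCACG
A match is a run of letters and not evidence of binding.

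The Hspa5 promoter, chr2:34771840-34772139 on the plus strand, is printed to show the element, in capitals, in its setting. It lies 65 to 47 bases before the start on the gene's own strand.
Hspa5 promoter: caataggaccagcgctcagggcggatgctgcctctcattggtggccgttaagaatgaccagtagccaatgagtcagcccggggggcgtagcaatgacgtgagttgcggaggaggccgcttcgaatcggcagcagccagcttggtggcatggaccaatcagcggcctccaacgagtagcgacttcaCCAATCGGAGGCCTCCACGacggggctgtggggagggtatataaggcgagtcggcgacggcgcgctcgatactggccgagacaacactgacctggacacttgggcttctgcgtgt

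**Figure D4:**
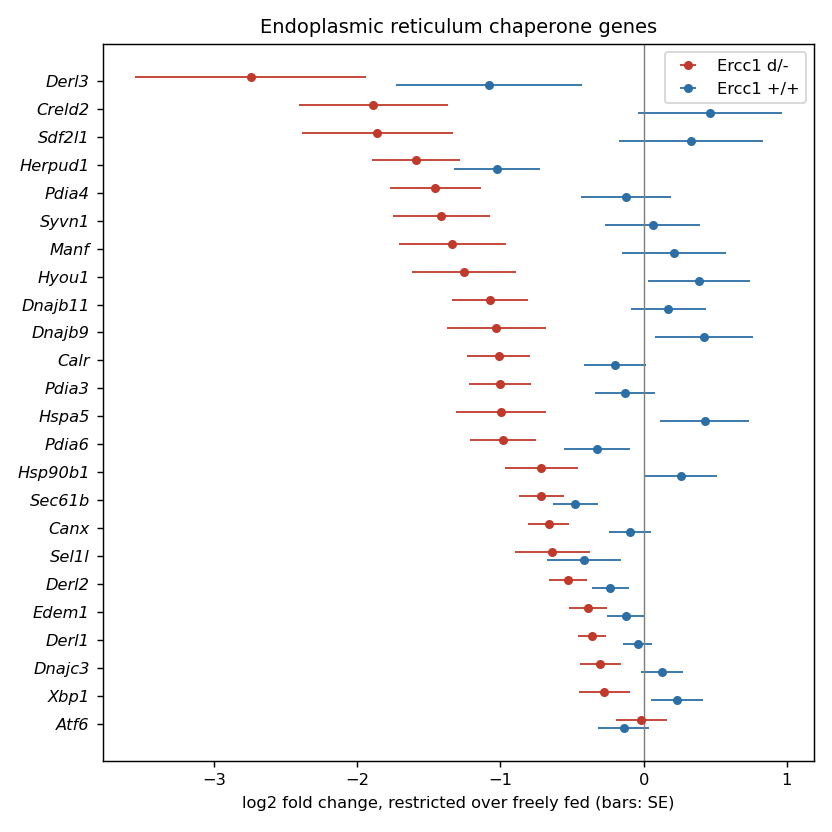
Log2 fold change, restricted over freely fed, with its SE for the 24 endoplasmic reticulum genes tested, in Ercc1 d/- and Ercc1 +/+ livers, ordered by the change in Ercc1 d/- livers. The points for Ercc1 d/- livers run from -2.75 for Derl3 to -0.02 for Atf6, and the list's median was -1.0 in Ercc1 d/- and -0.07 in Ercc1 +/+ livers.

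Of 33 p53 targets, 6 were lower and 1 was higher (21.2% called, against 11.2% of all genes), with a median of -0.32. Phlda3, a repressor of AKT, had 1.69, 5.31, 2.16 and 2.01 CPM in restricted livers and 22.8, 5.47, 4.99 and 4.51 CPM in freely fed Ercc1 d/- livers. Restricted replicate 2 lay within the freely fed range, and freely fed replicate 1 was far above its group (log2 fold change -1.75 ± 0.49). Bbc3, which encodes the death promoter PUMA, averaged 2.71 ± 0.28 CPM in restricted and 8.93 ± 3.80 CPM in freely fed livers, and Bax, of the same death pathway, averaged 13.8 ± 0.8 and 22.8 ± 5.5 CPM in restricted and freely fed livers. The cell cycle inhibitor Cdkn1a had 27.2, 47.9, 15.1 and 11.6 CPM in restricted against 54.3, 16.1, 24.2 and 14.6 CPM in freely fed livers and did not pass (-0.10 ± 0.54). The stress cytokine Gdf15 did not pass either (-0.32 ± 0.39). The number of p53 targets lower ran from 2 to 7 when single libraries were left out and was 3 without either pair of restricted replicates.

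Of 42 proliferation genes, 9 fell, none rose and 33 did not pass (21.4% called, against 11.2% of all genes). The median was -0.34. The count was 5 without restricted replicates 1 and 2 and 6 without replicates 3 and 4. Mcm5, a subunit of the replicative helicase, had 1.28, 1.66, 1.93 and 1.69 CPM in restricted against 5.29, 9.17, 10.0 and 11.3 CPM in freely fed Ercc1 d/- livers, with no overlap (-2.44 ± 0.38). All 9 were helicase subunits (Mcm2 to Mcm7), E2F factors (E2f1, E2f8) or Ccne2, which act at the entry to S phase. Ccnd1, the cyclin of the first gap phase, did not pass, and neither did the mitotic genes Mki67 and Top2a. Of 30 nucleotide excision repair genes 3 were lower, a called share of 10.0% against 11.2% of all genes. They were Rpa1, Rpa2 and Pole, which also replicate DNA. The count was 1 without restricted replicates 1 and 2.

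Of 41 interferon response genes, Usp18 was higher, and Psmb8, Psmb9 and Zbp1 were lower, a called share of 9.8% against 11.2% of all genes. These counts turned on the restricted libraries used: 4 were higher and 2 lower (median 0.30) without replicates 1 and 2, and 1 was higher and 7 lower (median -0.54) without replicates 3 and 4. Psmb9, a subunit of the immunoproteasome, averaged 6.25 ± 1.12 CPM in restricted and 16.9 ± 1.4 CPM in freely fed Ercc1 d/- livers (-1.44 ± 0.28). Irf7 had 31.1, 49.1, 48.0 and 39.8 CPM in restricted and 64.3, 41.0, 42.4 and 44.3 CPM in freely fed livers and did not pass (-0.19 ± 0.19). Of 19 antioxidant enzyme genes, 5 were lower and 1 was higher, a called share of 31.6% against 11.2% of all genes. Under total-count scaling 4 were lower and 3 higher, and without restricted replicates 1 and 2 1 was lower and none higher. Catalase, Cat, which removes hydrogen peroxide, fell by 1.08 ± 0.17, at 778.4 ± 206 CPM in restricted and 1648 ± 125 CPM in freely fed livers. Gpx3, a secreted peroxidase, changed by 1.09 ± 0.34, a call that ended without any 1 of restricted replicates 1, 2 and 4 or freely fed replicates 2 to 4.

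Of 73 nuclear genes of oxidative phosphorylation 16 were higher and none was lower (21.9% called, against 11.2% of all genes). Their median was 0.28. Atp5b, the catalytic subunit of ATP synthase, had 1870, 1690, 1662 and 1776 CPM in restricted against 1308, 1309, 1212 and 1172 CPM in freely fed Ercc1 d/- livers (0.48 ± 0.10). The count was 45 under total-count scaling and 6 without restricted replicates 1 and 2. Of 13 genes on mitochondrial DNA 4 were higher (30.8% called, against 11.2% of all genes), among them mt-Nd3, a complex I subunit (0.55 ± 0.13). Their count was 11 under total-count scaling, 1 to 5 when single libraries were left out, and none without restricted replicates 1 and 2. Of 79 ribosomal protein genes 6 were higher (median 0.23), a called share of 7.6% against 11.2% of all genes. The count was 42 under total-count scaling and none without restricted replicates 1 and 2. Of 21 clock genes, Npas2 was higher and Nr1d1 was lower, a called share of 9.5% against 11.2% of all genes. Per2 did not pass (-0.14 ± 0.20).

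Markers of other liver cells were also examined. The 27 macrophage markers summed to between 391.9 and 576.7 CPM in restricted and between 273.3 and 492.9 CPM in freely fed Ercc1 d/- livers, none was at 0, and 3 of 26 tested (Cd14, Marco and Cd163) were higher, or 11.5% called, against 11.2% of all genes. None was higher without restricted replicates 1 and 2. The 19 endothelial markers summed to between 277.1 and 391.9 CPM in restricted and between 217.3 and 290.4 CPM in freely fed livers, and 4 were higher (21.1%), among them Lyve1, a receptor of sinusoidal cells (1.78 ± 0.44). Without restricted replicates 1 and 2 the endothelial count was 1, and without replicates 3 and 4 it was 2. Cholangiocyte markers summed to between 20.4 and 61.7 CPM in restricted and between 35.55 and 46.65 CPM in freely fed livers, and of 9 tested (22.2% called) 1 was higher, Prom1, which is also on the female-biased list, and 1 was lower. Without restricted replicates 3 and 4, 3 of them were lower. Of the 18 T and NK cell markers 4 were tested and Cd4 was lower, and of the erythroid markers Alas2 was lower, at 8.32 ± 0.72 CPM in restricted against 100.9, 123.1, 14.2 and 19.4 CPM in freely fed replicates 1 to 4, a call lost without either pair of restricted replicates. The part these markers have in the other results was not tested.

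The same restriction in Ercc1 +/+ livers changed 1726 genes, or 13.6% of those tested. No library is shared between these comparisons, and the log2 fold changes correlated across the 12690 genes at r = 0.57, where genes are not independent replicates. Of the 1426 genes called in Ercc1 d/- liver, 499 were called in the same direction in Ercc1 +/+ liver (35.0% of the first set and 28.9% of the second) and 20 in the opposite direction. Called there or not, 1209 of the 1426 had a fold change of the same sign in Ercc1 +/+ liver. The difference of the effects passed for 190 genes (1.5% of those tested), of which 115 were more positive and 75 more negative in Ercc1 d/- livers. Of these 190, 82 were called in Ercc1 d/- livers and not in Ercc1 +/+ livers, 67 in Ercc1 +/+ and not in Ercc1 d/- livers, 38 in both and 3 in neither.

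**Figure D5:**
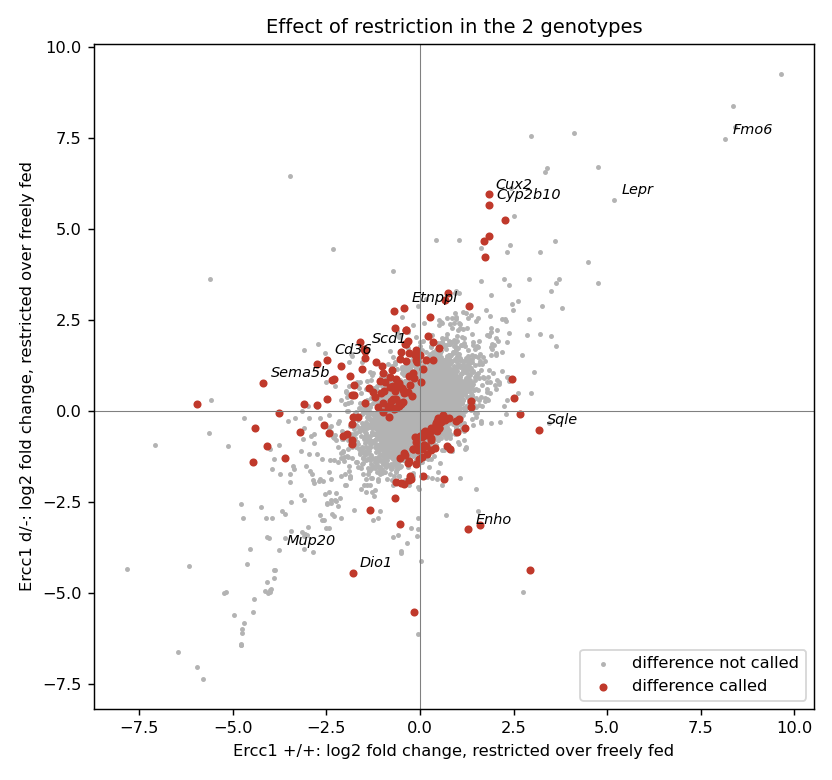
Log2 fold change of restriction in Ercc1 d/- livers (vertical axis) against that in Ercc1 +/+ livers (horizontal axis) for the 12690 genes tested. Red points are the 190 genes whose effect differed between genotypes (edgeR adjusted p under 0.05), and some are named, together with other genes such as Fmo6, which lies at 7.46 in Ercc1 d/- and 8.16 in Ercc1 +/+ livers.

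Of the 28 male-biased genes 25 were lower in Ercc1 +/+ livers too, with a median of -2.01, and the difference passed for Nudt7, a peroxisomal hydrolase, alone (-1.40 ± 0.35). Of all genes tested, 7.3% were lower and 6.3% were higher in restricted Ercc1 +/+ livers. For female-biased genes 15 were higher in Ercc1 +/+ livers, and the difference passed for 10, of which 7 were more positive and 3 more negative in Ercc1 d/- livers. Fmo6 averaged 33.4 ± 5.6 CPM in restricted and 0.11 ± 0.16 CPM in freely fed Ercc1 +/+ livers, and its difference did not pass (-0.70 ± 0.78). Cyp2b10 averaged 85.9 ± 29.9 CPM in restricted and 23.8 ± 8.0 CPM in freely fed Ercc1 +/+ livers. The change was larger in Ercc1 d/- livers (difference 3.80 ± 0.72), from a lower mean on either diet. Cux2 averaged 0.60 ± 0.50 CPM in freely fed Ercc1 d/- livers against 6.43 ± 1.82 CPM in freely fed Ercc1 +/+ livers, and its difference of 4.11 ± 1.03 (edgeR adjusted p = 0.049) lost the call without any 1 of 12 of the 16 libraries.

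Cyp3a11 and Cyp2c29, both targets of CAR or PXR, rose in Ercc1 d/- livers and did not rise in Ercc1 +/+ livers. Cyp3a11 averaged 1947 ± 324 CPM in restricted and 545.9 ± 51.7 CPM in freely fed Ercc1 d/- livers, against 1179 ± 530 CPM in restricted and 1549 ± 207 CPM in freely fed Ercc1 +/+ livers (difference 2.23 ± 0.30). Freely fed Ercc1 d/- livers of 7 weeks had 1331 ± 275 CPM. Cyp2c29 averaged 255.9 ± 43.2 CPM in restricted and 108.2 ± 13.9 CPM in freely fed Ercc1 d/- livers, and 527.1 ± 70.3 CPM in restricted and 1067 ± 180 CPM in freely fed Ercc1 +/+ livers, where it fell (difference 2.26 ± 0.24).

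Lipid genes also differed. Cd36 averaged 123.3 ± 25.9 CPM in restricted and 46.8 ± 5.8 CPM in freely fed Ercc1 d/- livers, whereas it was at 15.4 ± 4.7 CPM in restricted and 86.3 ± 29.5 CPM in freely fed Ercc1 +/+ livers (difference 3.89 ± 0.52). Scd1 rose in Ercc1 d/- livers and fell in Ercc1 +/+ livers, to 948.7 ± 286 CPM in restricted against 2652 ± 671 CPM in freely fed ones (difference 3.18 ± 0.56). The restricted livers of both genotypes thus lay closer together in Scd1 than the freely fed ones. Pnpla2 averaged 63.4 ± 28.0 CPM in restricted and 50.03 ± 6.75 CPM in freely fed Ercc1 +/+ livers and did not pass there (difference 1.54 ± 0.37). Sqle, a rate-setting enzyme of cholesterol synthesis, had 19.4, 35.3, 70.04 and 47.2 CPM in restricted and 73.3, 60.9, 59.3 and 52.4 CPM in freely fed Ercc1 d/- livers and did not pass, while Ercc1 +/+ livers averaged 32.4 ± 12.4 CPM under restriction and 3.56 ± 0.315 CPM with free feeding (difference -3.70 ± 0.69).

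Etnppl, Hal and Arg1 passed in Ercc1 d/- livers and not in Ercc1 +/+ livers, and their differences passed as well (3.25 ± 0.46, 1.05 ± 0.25 and 0.76 ± 0.19). Olig1, a transcription factor best known from glial cells, had 38.0, 21.1, 22.9 and 17.8 CPM in restricted against 1.32, 10.7, 7.12 and 8.01 CPM in freely fed Ercc1 d/- livers (1.88 ± 0.43, not called without restricted replicates 1 and 2), and fell in Ercc1 +/+ livers, to 1.17 ± 0.595 CPM in restricted against 3.60 ± 1.33 CPM in freely fed ones (difference 3.47 ± 0.67). Sema5b, a semaphorin, averaged 0.67 ± 0.59 CPM in restricted and 12.1 ± 5.0 CPM in freely fed Ercc1 +/+ livers and did not pass in Ercc1 d/- livers (difference 4.96 ± 0.75, or 3.42 without restricted Ercc1 d/- replicates 3 and 4). In Olig1 every restricted Ercc1 d/- liver was above every freely fed one, while in Sema5b the Ercc1 d/- groups overlapped.

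Among genes more negative in Ercc1 d/- livers, Enho, which encodes the peptide adropin, had 1.99, 1.88, 1.17 and 0.91 CPM in restricted against 13.2, 14.7, 13.2 and 16.0 CPM in freely fed Ercc1 d/- livers. It rose in Ercc1 +/+ livers, at 5.91 ± 2.50 CPM under restriction and 2.45 ± 0.89 CPM with free feeding (difference -4.53 ± 0.52). Dio1, which activates thyroid hormone, had 4.03, 2.04, 0.76 and 0.97 CPM in restricted and 44.9, 34.8, 39.6 and 52.9 CPM in freely fed Ercc1 d/- livers (-4.45 ± 0.50, or -5.07 without restricted replicate 1). Its difference of -2.65 ± 0.62 (edgeR adjusted p = 0.035) lost the call without any 1 of 13 of the 16 libraries, and that of Sult2a7 (-2.58 ± 0.61, edgeR adjusted p = 0.033) without any 1 of 9. Pcp4l1 averaged 1.75 ± 0.47 CPM in restricted and 1.86 ± 0.64 CPM in freely fed Ercc1 d/- livers, and 9.95 ± 3.49 CPM in restricted and 1.55 ± 0.51 CPM in freely fed Ercc1 +/+ livers (difference -2.76 ± 0.45).

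No endoplasmic reticulum gene of the list passed the test of the difference, although 17 passed in Ercc1 d/- and 2 in Ercc1 +/+ livers. The difference for Hspa5 was -1.42 ± 0.44 (edgeR adjusted p = 0.12), and restricted Ercc1 +/+ livers had a wide spread, at 1958 ± 1003 CPM against 1456 ± 261 CPM in freely fed ones. Ribosomal protein genes showed the reverse pattern of calls, with 6 of 79 higher in Ercc1 d/- and 69 higher in Ercc1 +/+ livers (median 0.62), and again none passed the test of the difference. Of the 26 complement genes, a list drawn up after values had been seen, 11 were lower and 1 was higher in Ercc1 +/+ livers. Their difference passed for 6, all more negative in Ercc1 d/- livers, as were 0.591% of all genes tested.

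Since unrepaired damage blocks RNA polymerase more often in long genes, levels were set against gene span. In each library the log2 level (of CPM plus 0.1), relative to the mean of all 24 libraries, was regressed on the log10 of the genomic span, so that a negative slope means less RNA from long genes. The slope was -0.069 ± 0.101 per 10-fold span in restricted and -0.108 ± 0.061 in freely fed Ercc1 d/- livers (SD, n = 4 each). The difference of 0.0392 did not exceed the spread (two-sided exact permutation test, p = 0.6, adjusted over 2 comparisons 0.6, where the smallest p possible is 0.0286). Single restricted livers ran from -0.21 in replicate 1 to 0.029 in replicate 2. In Ercc1 +/+ livers the slopes were 0.024 ± 0.030 under restriction and 0.089 ± 0.060 with free feeding (difference -0.0645, exact permutation p = 0.11, adjusted 0.23).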

How the data were processed

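The table the authors deposited holds raw counts per gene and library. The submitters' processing notes name Trimmomatic 0.39, STAR 2.7.0f, Subread 1.6.4 with featureCounts, and build GRCm38.p6; the annotation release, strand setting and handling of multi-mapped reads are not given in the sources used. All 22429 identifiers matched GENCODE M21 (GRCm38), the source of symbols and positions; genes with near copies may share reads. Counts ran from 13.3 to 20.6 M per library.

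In R 4.3.3, edgeR 4.0.16 took the deposited counts: filterByExpr by group kept 12690 genes, TMM scaled the libraries, and 1 model with 6 group means covered all 24 libraries, leaving 18 residual degrees of freedom. Quasi-likelihood F tests compared diets within each genotype and the difference between genotypes, with Benjamini-Hochberg adjusted p under 0.05 as the call. The floor used for a gene with no count in a group covers counting error only. Each value after ± is an SD among libraries or the SE of a fitted change. The script was tested on simulated data. Genes were named by a rule: the 6 largest called rises and falls with a mean of at least 2 CPM and no overlap, the called list members of smallest p until 24 more were named, the 5 largest differences in each direction, and a set list of genes; other list members used as examples were picked after their values were seen. Members and lists were chosen with earlier results of these data known. Alternatives were DESeq2 1.42.0, other scalings, no filter, fewer libraries and a replicate block. Some genes that the rule names are not reported here.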

Additional observations from a re-analysis of the deposited data

Results flagged for a closer look

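In 8 of the 122 groups of 4 libraries examined, 1 library lay so far from the rest that its gap to the next, as a share of the group's range, passed Dixon's critical value for 4 samples; chance passes about 5.0% of groups. In restricted Ercc1 d/- livers these were Cyp2b10 (0.909) and Lhpp (0.833) in replicate 1, Igfbp1 (0.882) and Gdf15 (0.836) in replicate 2, and Scd1 (0.986) in replicate 4. In freely fed Ercc1 d/- livers they were Mup15 (0.854) and Irf7 (0.86) in replicate 1, and Sult2a4 (1.0) in replicate 3, the only freely fed library with a count of it. In each case the library was the highest.

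Among the genes named by the rule, the effect of restriction on 18 differed between genotypes in a test of the difference itself (edgeR adjusted p under 0.05). As log2 fold change in Ercc1 d/- minus that in Ercc1 +/+ livers, the difference was positive for Sema5b (4.96), Cux2 (4.11), Cd36 (3.89), Cyp2b10 (3.8), Olig1 (3.47), Etnppl (3.25), Scd1 (3.18), Pnpla2 (1.54), Lhpp (1.49), Hal (1.05) and Fabp2 (0.99). It was negative for Enho (-4.53), Sqle (-3.7), Pcp4l1 (-2.76), Dio1 (-2.65), Sult2a7 (-2.58), Cyp2c69 (-1.39) and Rgn (-0.8).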

How the results depend on the processing

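The counts of genes called were 1426 for restriction in Ercc1 d/-, 1726 in Ercc1 +/+ and 190 for their difference. Leaving out restricted Ercc1 d/- replicates 1 and 2, chosen after seeing the data, gave 913 calls in Ercc1 d/- liver, of which 708 were shared. DESeq2 gave 388 differences. A fit of only the libraries compared gave 986 calls in Ercc1 +/+ liver and 126 differences. Without single libraries the counts ran from 1053 to 1414 in Ercc1 d/-, from 1051 (without restricted replicate 4; 1145 without freely fed replicate 3) to 2009 in Ercc1 +/+, and from 109 to 225 for the difference, the low values being 113 and 120 without freely fed Ercc1 d/- replicates 1 and 3, and 125 and 109 without freely fed Ercc1 +/+ replicates 3 and 4. The span slope difference ran from 0.0064 to 0.0862 in Ercc1 d/- and from -0.093 to -0.0461 in Ercc1 +/+. The cause of these shifts was not tested.

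With the replicate number as a block the counts were 1461, 1758 and 184, and the fold changes in Ercc1 d/- liver of all 61 named genes kept their side of the threshold. Of the 10 genotype differences refitted, Cux2 (4.023, edgeR adjusted p = 0.0684) and Dio1 (-2.579, edgeR adjusted p = 0.0629) lost the call. Same-numbered libraries of the 2 diets correlated at 0.023, -0.222, 0.086 and 0.123 in Ercc1 d/- and 0.157, -0.011, 0.067 and 0.223 in Ercc1 +/+. Unlike-numbered libraries ran from -0.296 to 0.404 in Ercc1 d/-. No pairing by number was seen, but weak correlations cannot exclude a shared litter or batch.

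Reversals touched only genes that did not pass. Under total-count scaling they were Cdkn1a (0.028), Per2 (0.001) and Pcp4l1 (0.031). Without restricted replicates 1 and 2 they were Igfbp1 (-1.565), Per2 (0.189) and Pcp4l1 (0.139). Without restricted replicates 3 and 4 they were Cdkn1a (0.462), Gdf15 (0.134), Ercc1 (-0.05), Fasn (-0.474), Ccnd1 (-0.654) and Sema5b (-0.771). Without single libraries the log2 fold change ran from -0.602 to 0.482 for Cdkn1a, from -0.266 to 0.145 for Pcp4l1, from -0.848 to 0.19 for Gdf15, from -0.776 to 1.518 for Igfbp1 and from -0.102 to 0.232 for Ercc1.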
